A study of Rattus norvegicus with 45 samples.

Results

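The genes described here carry out and govern the synthesis of cholesterol and fatty acids, and 34 of them were listed. A gene was measured by the probe set of the Affymetrix rat expression array that the platform annotation gives to its symbol, and where several carried the symbol, the one with the highest mean over all arrays was taken. Of the 34 genes, 33 had such a probe set, out of 14218 genes on the array, and all 33 were among the 10248 genes that passed a filter on low values. Hmgcs1, which makes the substrate of the mevalonate pathway, has no probe set under its symbol in the annotation used and was not analysed here. The 33 genes comprise 6 enzymes of the mevalonate steps, 11 enzymes between squalene and cholesterol, 6 genes of sterol sensing and transport, 7 genes of fatty acid synthesis and desaturation, and 3 genes of cholesterol efflux.

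Male Sprague-Dawley rats, 15 in all and 2 months old, each gave frontal cortex, hippocampus and striatum (45 arrays). Risperidone (5 mg/kg/d), haloperidol (0.25 mg/kg/d) or vehicle (1% acetic acid in water) was delivered to 5 rats each from subcutaneous minipumps over 21 days. Risperidone blocks dopamine and serotonin receptors and haloperidol blocks dopamine receptors. The 2 drugs were given at different doses, so that drug and dose cannot be told apart between them. The tissue is a piece of each region with all its cells. Fewer cells of a type and less RNA per cell therefore cannot be told apart, and all values below are relative levels on the log2 scale.

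Cholesterol hardly crosses the blood-brain barrier, and the brain makes its own, in oligodendrocytes for myelin and in astrocytes and neurons for their membranes. When sterols run low, Scap carries the membrane-bound factors encoded by Srebf1 and Srebf2 to the Golgi, where they are cut and released to switch on genes of sterol and fatty acid synthesis. The Insig proteins hold Scap back when sterols are plentiful, and Insig1 is itself a target of these factors, so that its mRNA is often read as a gauge of the pathway. Some antipsychotic drugs are known from cultured cells to block late steps of sterol synthesis.

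The promoters of 4 genes that were higher in striatum after risperidone are shown because the sterol-regulated factors act through short motifs near the start site. They were taken from RefSeq on build GRCr8, from 250 bases before to 50 bases after the annotated start, 5′ to 3′ on the gene's strand. Capitals mark the core of the sterol regulatory element (TCACNCCA), the E-box (CACGTG), the CCAAT box (CCAAT) and the GC box (GGGCGG), each searched on both strands, with no overlap between these motifs in the 4 sequences. They belong to Insig1 (chr4:8057720-8058019, minus strand), Msmo1 (chr16:29746863-29747162, plus strand), Tm7sf2 (chr1:212789492-212789791, minus strand) and Scd (chr1:253231682-253231981, minus strand).
Insig1: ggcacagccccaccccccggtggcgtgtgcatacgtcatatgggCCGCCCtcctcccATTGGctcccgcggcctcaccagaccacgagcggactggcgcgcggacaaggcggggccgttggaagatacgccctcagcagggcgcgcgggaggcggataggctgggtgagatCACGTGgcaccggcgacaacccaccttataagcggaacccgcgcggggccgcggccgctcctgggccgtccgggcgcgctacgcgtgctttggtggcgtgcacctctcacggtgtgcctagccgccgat
Msmo1: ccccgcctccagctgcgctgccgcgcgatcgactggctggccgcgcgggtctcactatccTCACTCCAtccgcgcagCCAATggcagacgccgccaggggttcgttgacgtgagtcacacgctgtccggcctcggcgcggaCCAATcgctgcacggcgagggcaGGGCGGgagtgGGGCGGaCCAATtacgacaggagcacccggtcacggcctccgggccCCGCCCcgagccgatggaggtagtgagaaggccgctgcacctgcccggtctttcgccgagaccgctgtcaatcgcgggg
Tm7sf2: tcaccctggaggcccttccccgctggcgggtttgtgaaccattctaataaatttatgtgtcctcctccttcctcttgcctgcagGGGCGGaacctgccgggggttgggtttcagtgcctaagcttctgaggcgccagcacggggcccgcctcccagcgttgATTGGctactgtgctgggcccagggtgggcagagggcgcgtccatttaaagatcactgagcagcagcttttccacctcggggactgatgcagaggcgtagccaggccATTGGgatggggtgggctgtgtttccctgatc
Scd: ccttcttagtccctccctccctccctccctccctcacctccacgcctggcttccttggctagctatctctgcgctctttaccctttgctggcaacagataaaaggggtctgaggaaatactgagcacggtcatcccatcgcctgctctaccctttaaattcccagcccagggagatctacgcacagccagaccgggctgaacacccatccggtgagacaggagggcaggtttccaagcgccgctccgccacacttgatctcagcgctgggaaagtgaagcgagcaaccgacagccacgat

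In the Msmo1 promoter the sterol regulatory core TCACTCCA begins at position -190 from the start, upstream of 3 CCAAT boxes. Insig1 holds an E-box, a CCAAT box and a GC box in its window. The Scd window held none of the 4 motifs, and Stard4 has no entry in the table. Of the 34 genes, 26 had a promoter in the table. The sterol regulatory core was found in 2 of the 26 (Msmo1, and Srebf2 at position -156 with the letters TCACCCCA), or 7.69%. It was found in 3.89% of all 33469 promoters and in 3.51% of the 8592 tested genes that had a promoter. A gene was counted once, for a match in any of its promoters, while the 33469 promoters were counted singly. CCAAT boxes stood in 19 of the 26 (73.1%), against 37.5% of all promoters and 38.9% of the tested genes. GC boxes stood in 22 (84.6%, against 33.1% and 65.3%) and E-boxes in 4 (15.4%, against 6.42% and 10.3%). A match is a description of these letters and not a measured site.

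Each drug was compared with vehicle within a region, with a limma fit over all 45 arrays in which the rat was a random block. A gene was called where its adjusted p was under 0.05 and its change at least 1.2-fold (0.26 on the log2 scale). After risperidone in striatum, 4 of the 33 genes rose and 1 fell. Insig1, the sterol sensor, Msmo1 and Tm7sf2, enzymes of the steps from lanosterol to cholesterol, and Scd, the desaturase that makes monounsaturated fatty acids, rose, and Stard4, a cytosolic sterol carrier, fell. Of the 18609 probe sets tested in that comparison, 3.65% were called, 0.887% higher and 2.76% lower. In frontal cortex after risperidone 1 gene rose, Mvd, the enzyme that makes isopentenyl pyrophosphate, and none fell, where 3.4% of all probe sets were called and 1.51% were called as higher.

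No gene of the 33 was called in hippocampus after risperidone, nor in any region after haloperidol. At an unadjusted p under 0.05 there were 6 genes in hippocampus after risperidone (16.6% of all probe sets reached it) and, after haloperidol, 1 in frontal cortex (13.6%), 0 in hippocampus (3.76%) and 4 in striatum (15.4%). A mixed model for each probe set also called 0 in these 4 comparisons. Over all probe sets, 0.113% were called after risperidone in hippocampus, and after haloperidol 0.177% in frontal cortex, 0% in hippocampus and 0.339% in striatum. After risperidone, 12 genes of the 33 lay under an unadjusted p of 0.05 in striatum, where 22.4% of all probe sets did, and 11 in frontal cortex, where 22.7% did.

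The enzymes that lead to cholesterol lay higher after drug more often than not, by small amounts. After risperidone most of all genes also did so in frontal cortex and hippocampus. Of the 17 enzymes from Acat2 to Dhcr7, risperidone means lay above vehicle means for 12 in frontal cortex, 15 in hippocampus and 14 in striatum, with median log2 differences of 0.09, 0.10 and 0.13. For all 10248 genes the corresponding medians were 0.03, 0.03 and -0.02, and 61.1%, 61.4% and 44.7% of genes lay above vehicle. After haloperidol 11, 10 and 14 of the 17 lay above vehicle, with medians of 0.02, 0.02 and 0.07, against medians of -0.03, 0.00 and -0.02 over all genes and 35.7%, 49.8% and 42.1% above vehicle. Both drugs are set against the same 5 vehicle rats, so that the 2 sets of differences are not independent. By rat, the mean of the 17, as deviation from the mean of its region, overlapped between risperidone and vehicle. In frontal cortex it ran from -0.10 to 0.12 after risperidone and from -0.10 to 0.05 with vehicle. In hippocampus it ran from -0.01 to 0.11 after risperidone and from -0.09 to 0.01 with vehicle. The map of differences by gene and comparison shows both signs among the sensing and transport genes.

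**Figure D1:**
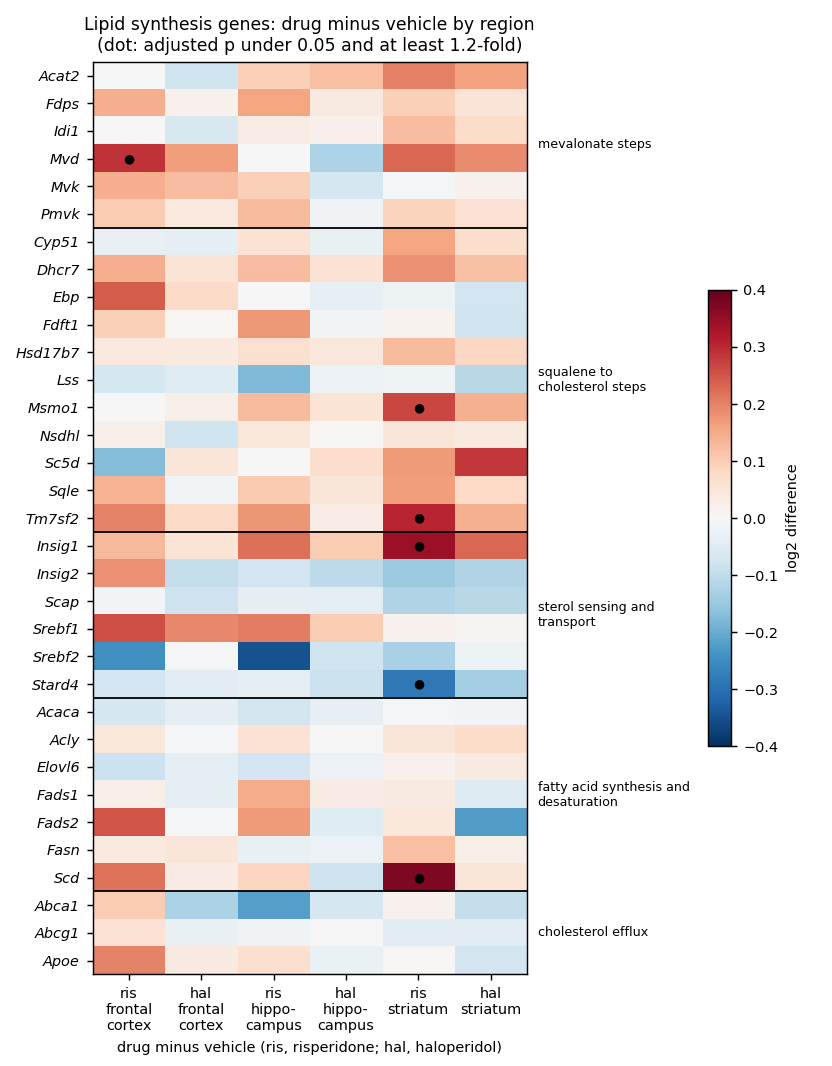
Log2 difference of each of the 33 genes, drug minus vehicle, by region (columns, risperidone and haloperidol for each region, n = 5 rats per group) and by role (rows). Dots mark the 6 differences with an adjusted p under 0.05 and a change of 1.2-fold or more, 5 of them after risperidone in striatum and 1 in frontal cortex.

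Insig1 had the smallest adjusted p of the 33 genes in striatum. Rats 1 to 5 had striatal log2 levels of 9.16, 9.32, 9.54, 9.34 and 9.60 after risperidone, of 9.04, 9.32, 9.39, 9.11 and 9.53 after haloperidol, and of 9.10, 8.93, 9.11, 9.08 and 9.04 with vehicle. Every risperidone rat lay above every vehicle rat, while haloperidol 1 and 4 stood within the vehicle range or at its edge and the 3 other haloperidol rats lay above it. Insig1 was 0.34 higher after risperidone (standard error 0.07, 1.27-fold, limma adjusted p = 0.00304, n = 5 each). After haloperidol the difference was 0.23 (95% interval 0.09 to 0.37, limma adjusted p = 0.13), and risperidone minus haloperidol was 0.11 (-0.03 to 0.26). In hippocampus the 5 risperidone rats (9.80 to 9.95) also lay above the 5 vehicle rats (9.54 to 9.76), with a difference of 0.22 that was not called (limma adjusted p = 0.124). In frontal cortex the groups overlapped and the difference was 0.13 (adjusted p = 0.267). The call in striatum was kept without each of the 10 risperidone and vehicle rats in turn (0.29 to 0.40, adjusted p up to 0.0217).

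Msmo1, the sterol methyl oxidase that removes methyl groups at carbon 4 and whose promoter carries the sterol regulatory core, had striatal levels of 10.72, 10.90, 10.88, 10.84 and 10.84 after risperidone, of 10.63, 10.87, 10.74, 10.51 and 10.80 after haloperidol, and of 10.47, 10.58, 10.67, 10.40 and 10.72 with vehicle. The lowest risperidone rat reached the highest vehicle rat to the printed digit and lay just above it. Haloperidol rats overlapped both groups. Msmo1 was 0.27 higher after risperidone (standard error 0.06, 1.2-fold, limma adjusted p = 0.0109), with a 95% interval of 0.14 to 0.40, and 0.14 higher after haloperidol (0.01 to 0.27, not called). It had no such difference in frontal cortex, where risperidone rats (10.69 to 11.01) enclosed the vehicle rats (10.86 to 10.96). The size lies close to the 1.2-fold threshold, and the call was lost without risperidone 2, risperidone 3, vehicle 1 or vehicle 4 (0.22 to 0.26 in these 4 settings, adjusted p up to 0.0594).

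Tm7sf2 encodes a sterol reductase that acts on the double bond at carbon 14. Its striatal levels in rats 1 to 5 were 7.72, 8.01, 7.98, 7.84 and 7.69 after risperidone, 7.63, 7.82, 7.78, 7.43 and 7.75 after haloperidol, and 7.63, 7.55, 7.64, 7.45 and 7.43 with vehicle. All risperidone rats lay above the vehicle rats, and haloperidol rats overlapped both groups. The difference was 0.31 after risperidone (standard error 0.09, 1.24-fold, limma adjusted p = 0.0401) and 0.14 after haloperidol (-0.04 to 0.32, not called). In frontal cortex (0.20) and hippocampus (0.18) the risperidone means were also above vehicle, with overlapping groups. This call was lost without risperidone 2, risperidone 3 or any of vehicle 1, 2, 4 and 5, with a difference of at least 0.26 and an adjusted p of up to 0.166.

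Scd showed the largest difference of the 33 genes in striatum after risperidone. Rats 1 to 5 stood at 7.41, 7.40, 7.74, 7.48 and 7.31 after risperidone, at 7.05, 7.38, 6.95, 6.98 and 7.36 after haloperidol, and at 7.07, 6.97, 7.30, 7.14 and 7.0 with vehicle. The lowest risperidone rat lay just above the highest vehicle rat, and the haloperidol rats split, 3 near the vehicle rats and 2 near the risperidone rats. Scd was 0.37 higher after risperidone (standard error 0.09, 1.29-fold, limma adjusted p = 0.00942) and 0.05 higher after haloperidol (-0.13 to 0.23). Risperidone minus haloperidol was 0.32 (0.15 to 0.50), which did not pass the adjustment (limma adjusted p = 0.412). The call was kept without each of the 10 rats in turn (0.31 to 0.42), with an adjusted p of up to 0.0499 without risperidone 3, whose level of 7.74 was the highest. In frontal cortex risperidone 3 was also highest (7.87), and the difference there was 0.22 (limma adjusted p = 0.132).

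Stard4 was the only gene of the 33 called as lower. Its striatal levels were 8.0, 8.01, 7.45, 7.65 and 7.74 after risperidone, 7.89, 8.14, 7.94, 7.74 and 7.90 after haloperidol, and 7.86, 8.05, 8.21, 8.02 and 8.15 with vehicle. The groups overlapped, since risperidone 1 and 2 stood within the vehicle range and the 3 other risperidone rats below it. The difference was -0.29 (standard error 0.09, limma adjusted p = 0.0488), and after haloperidol it was -0.14 (-0.31 to 0.04). A second Stard4 probe set gave -0.35 after risperidone (adjusted p = 0.0772) and -0.32 after haloperidol (adjusted p = 0.205). This call was lost without any of risperidone 3, 4 and 5 and vehicle 2, 3, 4 and 5, and without risperidone 3 the difference was -0.21 (adjusted p = 0.260).

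Mvd had frontal cortex levels of 7.57, 7.47, 7.61, 7.77 and 7.47 after risperidone, of 7.52, 7.49, 7.45, 7.35 and 7.49 after haloperidol, and of 7.41, 7.26, 7.41, 7.18 and 7.20 with vehicle. All risperidone rats lay above the vehicle rats, and all but 1 of the haloperidol rats did. The difference was 0.29 after risperidone (standard error 0.09, 1.22-fold, limma adjusted p = 0.0427) and 0.17 after haloperidol (-0.01 to 0.34). In hippocampus the risperidone and vehicle means were equal within 0.01 (7.79 each, SD 0.07 and 0.06), and in striatum risperidone was 0.23 higher (limma adjusted p = 0.11). With quantile normalization over all arrays the frontal difference was 0.27 and no longer called (adjusted p = 0.0713). The frontal call was also lost without risperidone 2, 3 or 4 or vehicle 1, 2, 4 or 5 (0.24 to 0.32 over the 10 rats, adjusted p up to 0.118). The plot of 6 genes by rat shows these levels in each region.

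**Figure D2:**
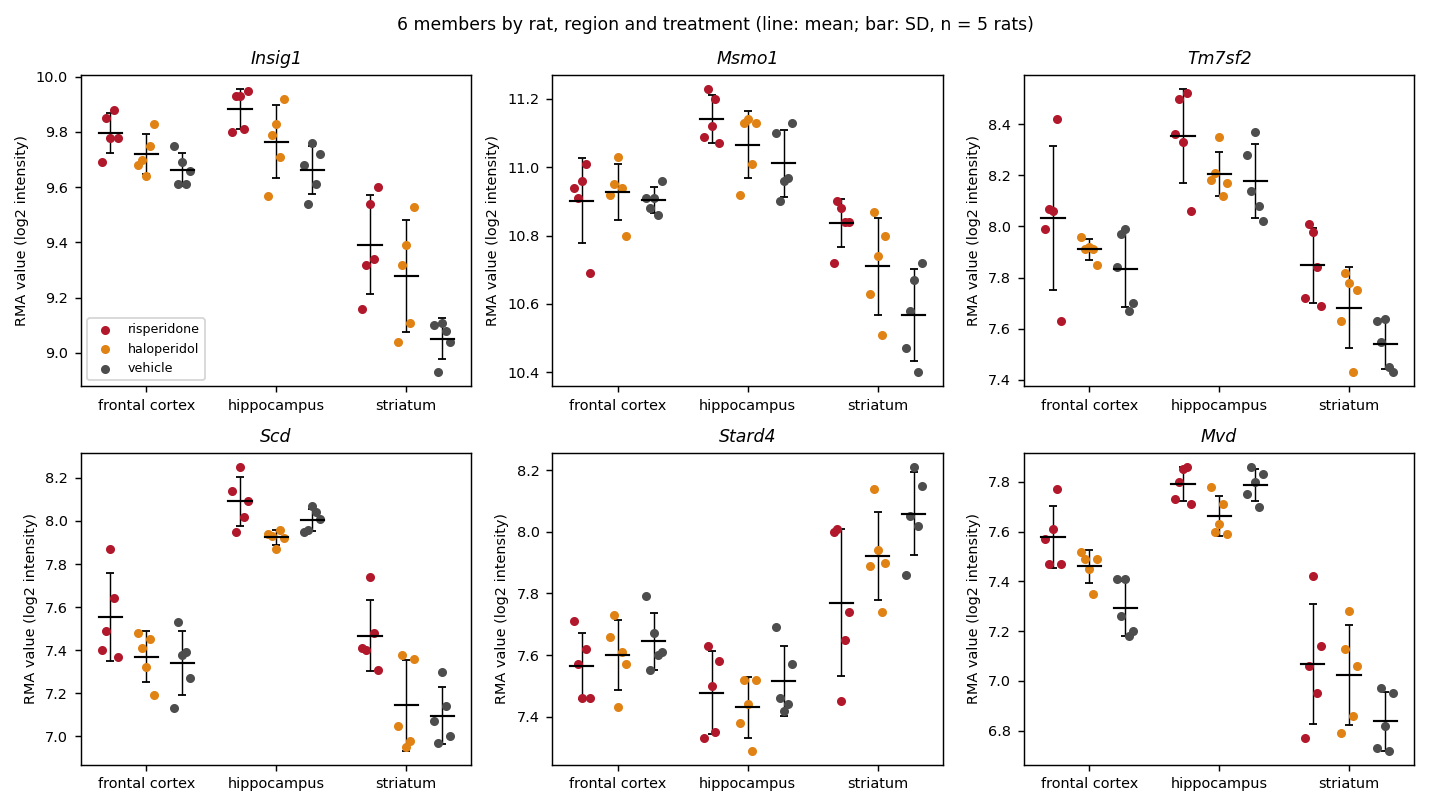
RMA values (log2 intensity, vertical axes) of the 6 called genes in each rat, by region and, within a region, after risperidone, haloperidol and vehicle (points: 5 rats per group; line: mean; bar: SD). In striatum all 5 risperidone rats lie above all 5 vehicle rats for Insig1, Tm7sf2 and Scd. For Msmo1 the lowest risperidone and the highest vehicle point are level at the plotted precision, and the Stard4 groups overlap.

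The 5 rats of one group stood wholly above the 5 of the other for few genes in any comparison. After risperidone this held, upward, for 4 genes in striatum (Insig1, Msmo1, Scd and Tm7sf2; 3.65% of all probe sets did not overlap, in either direction), for 1 in frontal cortex (Mvd; 5.64%) and for 4 in hippocampus (Fdft1, Fdps, Insig1 and Srebf1; 4.16%). After haloperidol it held for 0 genes in each region, where the shares over all probe sets were 3.96% in frontal cortex, 1.32% in hippocampus and 3.42% in striatum. These shares count both directions. Upward only, 198 of the 18609 probe sets did not overlap after risperidone in striatum, 533 in frontal cortex and 530 in hippocampus. In hippocampus, Fdps, which makes farnesyl pyrophosphate, stood at 10.17 to 10.34 after risperidone, against 10.03 to 10.15 with vehicle (difference 0.16, limma adjusted p = 0.203). Fdft1, which joins farnesyl pyrophosphate into squalene, stood at 9.37 to 9.57 after risperidone, against 9.20 to 9.36 with vehicle (0.17, limma adjusted p = 0.220). Neither passed the test.

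None of the transcription factors and their escort was called. Srebf1, whose products favor fatty acid genes, had frontal cortex levels of 8.84, 9.03, 9.14, 9.14 and 8.94 after risperidone, against 8.71, 8.93, 8.67, 8.88 and 8.62 with vehicle, a difference of 0.26 (under 1.2-fold, limma adjusted p = 0.0539). In hippocampus it stood at 9.27 to 9.52 after risperidone, against 9.16 to 9.24 with vehicle (0.21, limma adjusted p = 0.205). In striatum Srebf1 differed by 0.02 (-0.15 to 0.18). Scap, their escort, differed from vehicle by -0.01, -0.04 and -0.12 after risperidone in frontal cortex, hippocampus and striatum, and none of these differences was called.

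Insig2, the second Insig gene, had frontal cortex levels of 9.16, 9.56, 9.18, 9.16 and 9.33 after risperidone, of 9.16, 8.98, 8.74, 9.06 and 9.06 after haloperidol, and of 9.19, 8.83, 9.24, 9.12 and 9.09 with vehicle. The risperidone rats lay at or above the highest haloperidol rat. In striatum the levels were 9.05, 9.10, 8.56, 8.87 and 8.99 after risperidone, against 9.17, 8.95, 9.09, 9.15 and 8.96 with vehicle. Risperidone minus vehicle was thus 0.18 in frontal cortex and -0.15 in striatum, neither of them called. The difference between these 2 regional effects was called, at -0.33 (standard error 0.10, limma adjusted p = 0.0445). For Msmo1 the risperidone effect was 0.27 larger in striatum than in frontal cortex (standard error 0.08, adjusted p = 0.0496).

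These were the only 2 of the 33 genes whose risperidone effect differed between striatum and frontal cortex, where 2.94% of all probe sets were called. An unadjusted p under 0.05 was reached there by 8 of the 33 and by 21.5% of all probe sets. Without risperidone 2, 3 or 5 or vehicle 1, 2, 4 or 5 the Insig2 call was lost (-0.40 to -0.27 over the 10 rats, with the highest adjusted p, 0.123, when risperidone 3 was left out), and without these 7 rats or vehicle 3 the Msmo1 call was lost (0.21 to 0.31, adjusted p up to 0.124, without vehicle 4). A second Insig2 probe set gave 0.07 in frontal cortex and -0.26 in striatum after risperidone. No gene was called between hippocampus and frontal cortex (1.32% of all probe sets) or striatum and hippocampus (1.66%) for risperidone, nor for haloperidol between striatum and frontal cortex (0.0269%), hippocampus and frontal cortex (0%) or striatum and hippocampus (0%). Unadjusted p under 0.05 was reached by 4 and 4 genes for risperidone (15.5% and 19% of all probe sets) and by 1, 2 and 1 for haloperidol (7.41%, 8.4% and 7.36%) in these contrasts. Leaving out 1 haloperidol rat, which enters the risperidone contrasts only through the shared spread and the other contrasts directly, left 0 or 1 gene called over the 6 contrasts. With quantile normalization over all arrays the Insig2 call was lost (-0.29, adjusted p = 0.0743) and the Msmo1 call kept (0.29, adjusted p = 0.036).

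Set against each other at their different doses, the 2 drugs gave 0 called genes of the 33 in each region. Unadjusted p under 0.05 was reached by 6 genes in frontal cortex, 3 in hippocampus and 3 in striatum, and by 20.1%, 5.91% and 4.47% of all probe sets. The shares of all probe sets called were 0.768%, 0% and 0.0161%. The mixed model also called 0. The closest in frontal cortex was Insig2, 0.28 higher after risperidone than after haloperidol (0.12 to 0.44, limma adjusted p = 0.051). Sc5d, the desaturase that acts just before Dhcr7, had a frontal cortex mean of 9.67 after risperidone and 9.89 after haloperidol (difference -0.22, -0.43 to -0.01, not called). In striatum Sc5d was 0.17 above vehicle after risperidone and 0.28 above it after haloperidol (0.07 to 0.49, limma adjusted p = 0.191).

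Among the other fatty acid genes, Fads2, Fads1, Elovl6, Fasn, Acaca and Acly were not called in any drug comparison. Their differences from vehicle ran from -0.22 (Fads2 in striatum after haloperidol) to 0.25 (Fads2 in frontal cortex after risperidone). Fasn, the fatty acid synthase, differed by 0.12 in striatum after risperidone (limma adjusted p = 0.118), and Acly, which supplies acetyl-CoA for both pathways, by 0.05.

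Apoe, the main lipid carrier made by astrocytes, had frontal cortex levels of 13.37, 13.31, 13.48, 13.45 and 13.38 after risperidone, against 13.17, 13.34, 13.17, 13.08 and 13.23 with vehicle. All but 1 vehicle rat lay below the risperidone rats. The difference was 0.20 (standard error 0.05, limma adjusted p = 0.0197), which is 1.15-fold and so under the size that was called. Abcg1, an efflux transporter, differed from vehicle by -0.04 to 0.06 over the 6 comparisons.

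Srebf2, whose product favors cholesterol genes, and Abca1, the transporter that loads cholesterol onto lipoproteins, had single rats that were low in all 3 regions on the probe set taken. For Abca1 this was 1 of 3 probe sets tested. Srebf2 in hippocampus stood at 10.28, 9.46, 9.97, 9.96 and 10.12 after risperidone, at 10.33, 9.91, 10.32, 10.32 and 10.24 after haloperidol, and at 10.36, 10.32, 10.29, 10.23 and 10.32 with vehicle. The same risperidone rat, 2, was lowest of its group in frontal cortex (9.27) and striatum (8.92), and haloperidol 2 was lowest of its group in all 3 regions (9.73, 9.91 and 9.08). Vehicle rats differed among themselves by at most 0.15 within a region. The risperidone difference was -0.25 in frontal cortex, -0.35 in hippocampus (limma adjusted p = 0.0875) and -0.13 in striatum, and without risperidone 2 it was -0.14, -0.22 and -0.06 (adjusted p from 0.258 to 0.622).

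On the probe set taken, Abca1 stood between 6.35 and 7.28 in 3 rats and higher in the 12 others. Risperidone 3 had 6.97, 7.07 and 7.28, haloperidol 5 had 6.68, 7.13 and 6.35, and vehicle 1 had 6.45, 7.04 and 6.88 in frontal cortex, hippocampus and striatum. One rat of each treatment was thus low in all 3 regions. The share of the spread within groups that a rat carried across its regions (intraclass correlation, 15 rats in 3 regions) was 0.958 for Abca1 and 0.797 for Srebf2, against a median of 0.295 over the 33 genes and 0.216 over all 18609 probe sets. It was above 0.5 for 6 of the 33 genes (18.2%) and for 12.7% of all probe sets. The other 4 were Fads1 (0.652), Sc5d (0.599), Tm7sf2 (0.591) and Lss (0.557). For Abca1 the drug differences on this probe set ran from -0.22 to 0.10 with a standard error of 0.42, so that changes of the size seen in other genes were not detectable. Another Abca1 probe set was 0.37 higher in frontal cortex after risperidone (standard error 0.11, limma adjusted p = 0.0454). Rats spread less on that probe set, so the low rats and the 0.958 describe the probe set taken and not Abca1 as a whole.

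**Figure D3:**
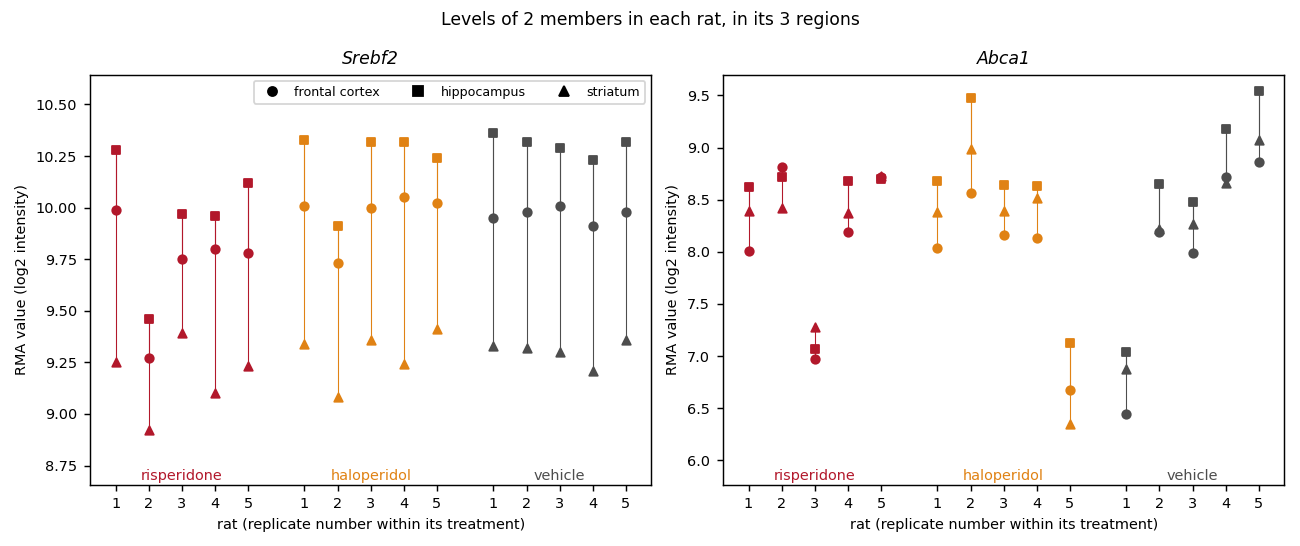
RMA values (log2 intensity, vertical axes) of Srebf2 and Abca1, by 1 probe set each, in each of the 15 rats (horizontal axes, grouped as risperidone, haloperidol and vehicle), with its 3 regions joined by a line. Risperidone 2 and haloperidol 2 lie low for Srebf2, and risperidone 3, haloperidol 5 and vehicle 1 lie low for Abca1, in each region.

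Other genes of lipid metabolism were followed in 3 further lists. Of 9 tested genes of sterol synthesis outside the 33, and of 19 tested genes of sterol uptake, trafficking and turnover, 0 were called in any of the 6 comparisons with vehicle. Of 25 tested genes of fatty acid and lipid synthesis, 1 rose and 1 fell in striatum after risperidone, and 0 changed in the 5 other comparisons. Acss2, which makes acetyl-CoA from acetate, was 0.29 higher (limma adjusted p = 0.0135), and Acsl5, an acyl-CoA synthetase, was 0.28 lower, a difference of -0.28 (adjusted p = 0.0258).

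Markers of cell types also differed between libraries and groups. In striatum, where 11 markers of striatal projection neurons averaged 10.8 to 11.9 against 7.48 to 8.66 in the other regions, 10 markers of pyramidal neurons, which belong to cortex and hippocampus, also varied between libraries. Their mean in striatum ran from 7.32 to 9.24 after risperidone, from 7.61 to 8.76 after haloperidol and from 7.23 to 7.91 with vehicle, and in the other regions from 10.2 to 10.7. All 10 of them had a higher mean after each drug than with vehicle, and 0 were called. Of the 11 striatal projection neuron markers, 10 had a lower mean after risperidone than with vehicle (median -0.31) and 2 fell, Tac1 (-0.76, limma adjusted p = 0.0388) and Foxp1 (-0.36, 0.028). Risperidone 3 stood highest in pyramidal markers, at 1.29 above the striatal mean, with its projection neuron markers at -0.89, and in the same library the mean of the 17 cholesterol enzymes stood highest, at 0.19. Across the striatal libraries the enzyme mean lay from -0.09 to 0.19 after risperidone, from -0.16 to 0.15 after haloperidol and from -0.16 to -0.01 with vehicle, around the mean of the 15.

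**Figure D4:**
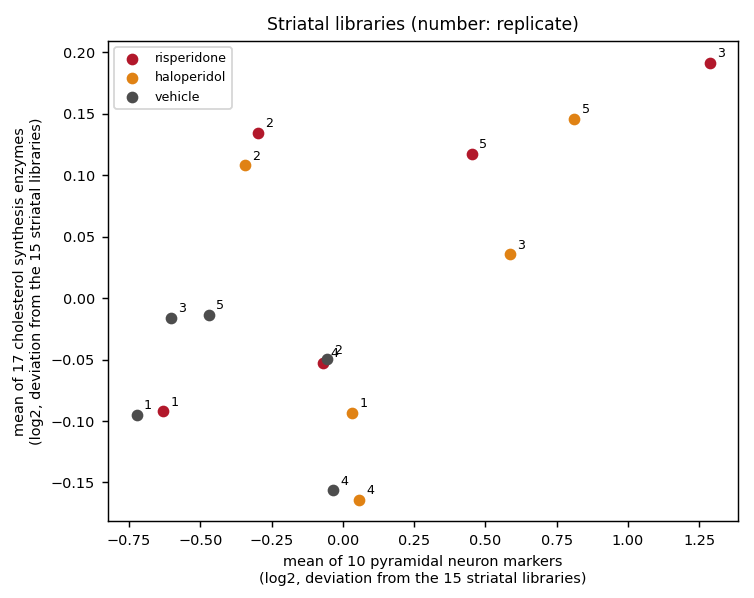
Mean of 10 pyramidal neuron markers (horizontal axis) and mean of the 17 cholesterol synthesis enzymes (vertical axis) in the 15 striatal libraries, both as log2 deviation from the mean of those libraries (points, numbered by rat, coloured by treatment). Risperidone 3 is highest on both axes (1.29 and 0.19), and all vehicle libraries lie below 0 on both.

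Without the striatal array of risperidone 3 alone, Insig1 (0.31, limma adjusted p = 0.0152) and Scd (0.33, adjusted p = 0.0476) stayed called. Msmo1 was then under 1.2-fold (0.26), and Tm7sf2 (adjusted p = 0.143) and Stard4 (adjusted p = 0.227) lost their calls. With the pyramidal marker mean as a covariate within striatum, Scd stayed called (0.35, adjusted p = 0.0399), while Insig1 (0.25, adjusted p = 0.0475) and Msmo1 (0.25, adjusted p = 0.0328) were under 1.2-fold and Tm7sf2 (0.28, adjusted p = 0.133) and Stard4 (-0.19, adjusted p = 0.313) did not pass.

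Myelin markers (12 tested), of cells that make much cholesterol, also lay higher after drug, in each region. In hippocampus all 12 had higher means after each drug, with medians of 0.36 after risperidone and 0.27 after haloperidol. In frontal cortex 11 had higher means after risperidone (median 0.20) and all 12 after haloperidol (median 0.42). In these 2 regions 0 of the markers were called. In hippocampus 0 of the 33 genes were called after either drug. In striatum the mean of 12 such markers ran from 10.8 to 11.4 after risperidone, from 10.9 to 11.4 after haloperidol and from 10.8 to 11.2 with vehicle, and all 12 had higher means after each drug, with medians of 0.23 and 0.26, though 0 were called. With the myelin mean as a covariate in each region, 0 of the 33 genes were called in striatum after risperidone, against 243 of all probe sets, and Insig1 differed by 0.23 (adjusted p = 0.0777), Scd by 0.31 (0.114), Msmo1 by 0.18 (0.178), Tm7sf2 by 0.21 (0.293) and Stard4 by -0.36 (0.0549). The part of these cells in the differences was not tested beyond these fits. Of 12 astrocyte markers, Gfap rose in striatum after risperidone (0.64, adjusted p = 0.00942) and 0 others were called.

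In frontal cortex, 4 olfactory bulb and neuroblast markers averaged 9.12 and 8.79 in risperidone 2 and 5, and 7.01 to 7.08 in vehicle rats. Of the 4, 3 rose after risperidone (Calb2, Dcx and Doc2g, median of the list 0.91). Microglial markers had a higher mean after risperidone in 10 of 10 (median 0.18), of which Tyrobp rose (0.39), and endothelial markers in 0 of 8 (median -0.26), of which Slco1c1 fell (-0.42). The part of these in the Mvd difference was not tested apart from the olfactory covariate. Risperidone 2 and 5 had the lowest Mvd levels of their group (7.47 each). With the mean of the olfactory markers as a covariate, Mvd was 0.36 higher after risperidone (limma adjusted p = 0.0483). That mean was at least 7.23 in every risperidone rat and at most 7.08 in every vehicle rat. The fit therefore cannot fully separate these markers from the drug.

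The fit over all 45 arrays takes its spread from 3 regions. When striatum was fitted on its own 15 arrays, 90 probe sets were called after risperidone in place of 679, and 0 of the 33 genes, with adjusted p of 0.133 for Insig1, 0.123 for Scd, 0.136 for Msmo1, 0.126 for Tm7sf2 and 0.225 for Stard4. Mvd kept its call in frontal cortex in that fit (adjusted p = 0.0389).

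The levels of these genes also differed between regions in the 5 vehicle rats. As the values were deposited, 19 of the 33 genes were called between striatum and frontal cortex, 4 higher in striatum and 15 lower (46.1% of all probe sets called, 18.3% higher and 27.8% lower). Hippocampus differed from frontal cortex in 20 genes, all of them higher in hippocampus (53.2% of all called, 46.7% higher and 6.48% lower), and striatum from hippocampus in 26, of which 1 was higher in striatum and 25 were lower (62.5% of all called, 8.59% higher and 53.9% lower). The median over all probe sets was shifted by -0.06, 0.25 and -0.30 in these contrasts. Median intensities of the arrays were 87.9 to 92.1 in striatum, 89.9 to 93.1 in frontal cortex and 107 to 110.4 in hippocampus. Quantile normalization over all 45 arrays removed that shift (medians of 0.01, 0.00 and 0.01), and then 15 genes (5 higher, 10 lower), 7 (5 higher, 2 lower) and 15 (2 higher, 13 lower) were called, where 45.5%, 31% and 46.1% of all probe sets were. Called in the same direction under both were 14, 5 and 14 genes.

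Cholesterol enzymes were mostly lower in striatum under both scalings. Relative to frontal cortex, Hsd17b7 was at -0.62 as deposited and -0.58 after quantile normalization, Acat2 at -0.61 and -0.55, Pmvk at -0.58 and -0.47, Mvd at -0.45 and -0.43, and Sc5d at -0.54 and -0.40, all called under both. Insig1 (-0.61 and -0.47) and Srebf2 (-0.66 and -0.52) were lower as well. In striatum Insig1 stood at 8.93 to 9.11 in vehicle rats, against 9.61 to 9.75 in frontal cortex, with no overlap. Higher in striatum than in frontal cortex under both scalings were Abcg1 (0.53 and 0.65), Stard4 (0.42 and 0.47), Ebp (0.37 and 0.40), which isomerizes sterols, and Srebf1 (0.28 and 0.39). Ebp thus differed in direction from the 6 other cholesterol enzymes named here, Nsdhl (-0.36 and -0.27) among them.

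Scd was higher in hippocampus than in frontal cortex under both scalings (0.67 and 0.39), with 7.95 to 8.07 in hippocampus, against 7.13 to 7.53 in frontal cortex. Apoe (0.47 and 0.30), Abcg1 (0.51 and 0.28), Ebp (0.57 and 0.31) and Fads2 (0.59 and 0.31) did likewise. Between striatum and hippocampus, Srebf2 (-1.0 and -0.66), Mvd (-0.95 and -0.65), Scd (-0.91 and -0.60) and Acat2 (-0.89 and -0.57) showed the largest deficits in striatum, and Stard4 was higher in striatum (0.54 and 0.86).

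**Figure D5:**
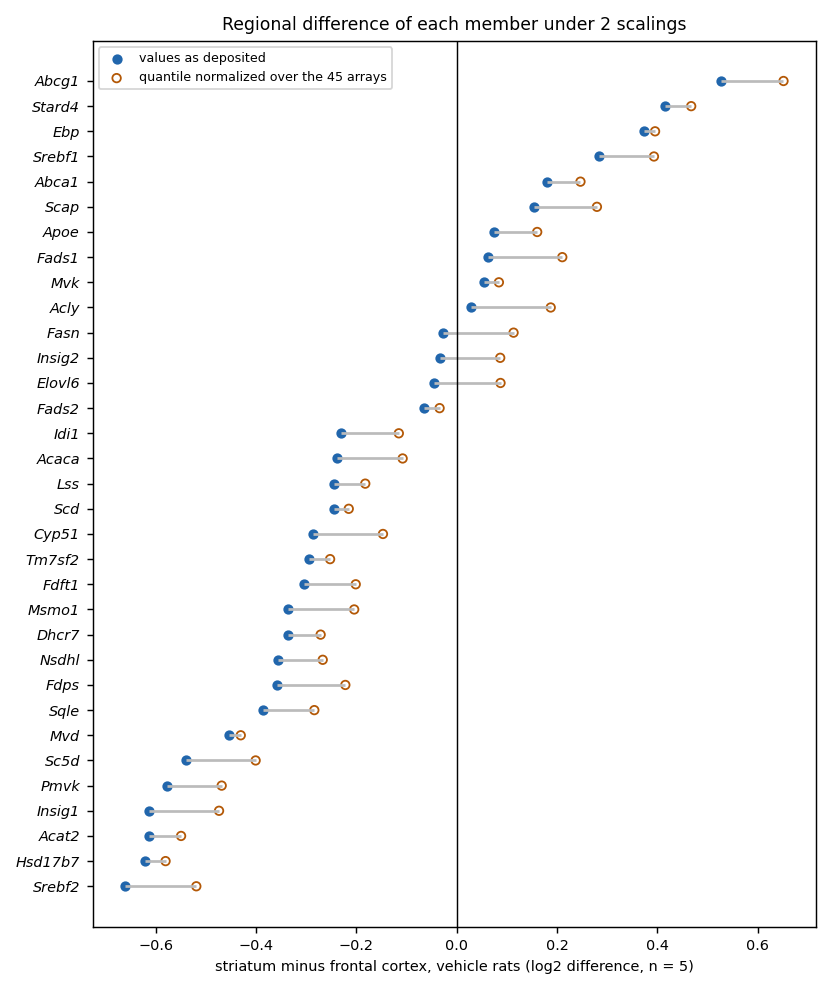
Difference between striatum and frontal cortex in vehicle rats (horizontal axis, log2, n = 5) for each of the 33 genes (vertical axis, sorted), as deposited (filled points) and after quantile normalization over the 45 arrays (open points). Quantile normalization moves each gene to the right, and Hsd17b7, Acat2 and Srebf2 remain lowest, and Abcg1 and Stard4 highest, under both.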

How the data were processed

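Total RNA of 3 brain regions from 15 rats was hybridised to 45 Affymetrix arrays. The deposited values are linear intensities that the authors made with RMA in R 2.7.2, per the submitters' processing notes, which corrects background, normalizes by quantile and summarizes the probes of a set. The sources do not say whether the regions were normalized together. Array medians were higher in hippocampus than in the other regions. Labels call the tissue mouse, and the organism rat. The log2 values were fitted with limma 3.58.1 (statmod 1.5.0, data.table, version 1.17.8) in R 4.3.3, with 9 group means and the rat as a random block (duplicateCorrelation, correlation 0.226). Probe sets with a mean under the 40th percentile and 50 control sets were left out, which kept 18609 of 31099. Of those, 14116 had 1 gene symbol, 306 several and 4187 none. Figures were drawn with matplotlib 3.10.9 and promoters read with pandas 2.3.3 in python 3.11.15.

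P-values were adjusted by Benjamini-Hochberg over all probe sets of a comparison. On simulated data for risperidone against vehicle in striatum (18609 probe sets, 100 changed per size), limma called 54 at 1.25-fold and 92 at 1.5-fold. The number of arrays limits the precision. All 33 genes were described, those called with every rat's value, the others by ranges and counts, and of the other lists at most the 4 called genes with the smallest p. Members and lists were chosen with earlier results of these data known. Alternatives were other filters, scalings, blocks and variance models, array weights, a mixed model and leaving out each rat. Chosen after seeing the data were leaving out 1 striatal array and marker means as covariates. Human samples were not analysed here. The rat's regions belong together by animal (same rat, median r = 0.354 of deviations, above 0.1 in 44 of 45 pairs).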

Additional observations from a re-analysis of the deposited data

Results flagged for a closer look

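A gap test (Dixon's, for groups of 5 rats) was run on 117 groups, of the 6 called genes and further genes named above. It marked 7 groups in which 1 rat lay far from the others, where chance marks about 1 in 20, so that the 7 of 117 lie near the share that chance gives. Srebf2 and Abca1, described above for their low rats, were among the genes tested. The 3 regions of a rat are not independent. Srebf2 in haloperidol 2 stood at 9.73 in frontal cortex, below all the other haloperidol rats, and at 9.91 in hippocampus, where the next had 10.24. Abca1 in haloperidol 5 stood at 6.68 in frontal cortex (next 8.04) and at 6.35 in striatum (next 8.38). Abca1 in risperidone 3 stood at 7.07 in hippocampus (next 8.62) and at 7.28 in striatum (next 8.37). Fdps in haloperidol 3 stood at 9.83 in frontal cortex, where the next lowest had 10.03.

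For 2 genes the effect of risperidone differed between striatum and frontal cortex by a test of the difference itself. The striatal effect minus the frontal effect was -0.33 for Insig2 and 0.27 for Msmo1 (limma adjusted p of 0.0445 and 0.0496).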

How the results depend on the processing

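The 6 called differences from vehicle kept their sign under 14 alternatives each, the 2 differences between regional effects under 12, and all 8 without each of 10 rats. Alternatives that changed only the filter, the block or the variance model leave a difference unchanged, so its sign could not change there. Where 2 groups did not overlap, leaving out 1 rat could not reverse the sign either. Calls after risperidone in striatum (5 genes) were 3 without a filter on low values and 3 by the mixed model, 2 with array weights and 2 without the striatal array of risperidone 3, 1 with pyramidal and olfactory markers as covariates, and 0 with the myelin covariate or with no block and striatum fitted alone. In frontal cortex after risperidone (1 gene) 0 were called without the filter or with median centring, with quantile normalization Mvd lost its call (adjusted p = 0.0713) while 1 other gene was called, and 3 were called with array weights, which also called 1 in hippocampus. Replicate number does not pair rats of different treatments (median r = -0.02 over 45 pairs), and as a block it left 0 genes in frontal cortex and 0 in striatum after risperidone. Between drugs (0 genes) 1 was called with the 60th percentile filter, with a variance trend, and without that striatal array. For drug effects between regions (2 genes), 0 were called without the filter, with no block, without that array and with pyramidal and olfactory covariates, and 1 by the mixed model, with array weights, median centring, quantile normalization or the myelin covariate. Neither Insig2 nor Msmo1 was the gene called with array weights or the myelin covariate, and Insig2 lost its call with the mean of all its probe sets (adjusted p = 0.0676). Hippocampus against frontal cortex (20 genes) gave 6 with median centring and 7 with quantile normalization, and striatum against hippocampus (26) gave 15 with quantile normalization. The cause of these changes was not tested. How many of all probe sets were called is given above for only some of these alternatives. In the others, a loss particular to these genes cannot be told from a general loss of calls. Without each rat in turn, the counts ran from 2 to 6 in striatum, 0 to 3 in frontal cortex and 0 to 1 in hippocampus after risperidone, 0 to 1 in striatum after haloperidol and 0 in its other regions, 0 to 1 between drugs, 0 to 2 between regional effects, and 17 to 20, 18 to 21 and 25 to 26 between regions in vehicle rats (striatum and frontal cortex, hippocampus and frontal cortex, striatum and hippocampus).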
